A study of Mus musculus with 6 samples.

Results

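A set of 10 genes that mark the subplate and layers V and VI of the mouse cerebral cortex were examined in cortex labelled Cux2 knock-out and in control cortex. They are Ctgf (now named Ccn2), Nxph3, Nxph4, Cplx3, Syt6, Ntsr1, Oprk1, Crym, Pcp4 and Rprm. Their probes were taken by the gene name printed in the array files, which gave 13 probes for the 10 genes, among 27670 gene names on the array. The 3 knock-out samples (53, 48 and 54) carry the genotype Cux2-/-, and the 3 controls (15, 62 and 16) are titled WT while their genotype tag reads Cux2+/-, a conflict that nothing settles. All 6 samples come from male mice, and the sources used here give neither the age of the animals nor the construction of the mutant allele. Dissected cerebral cortex was used, with no separation of layers stated, and 1 Cy3-labelled 1-colour Agilent array was hybridised per sample. Nothing states that the samples are separate animals, so the errors below measure the spread between these samples.

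The subplate is the earliest-born neuronal layer of the cortex. In the adult mouse it persists as a thin band of neurons above the white matter, often called layer VIb. Layer VI neurons send axons mainly to the thalamus, and layer V holds the neurons that project to the brainstem and spinal cord. Cux2 is a homeodomain transcription factor of the upper layers (II to IV), so these genes belong to neurons that lie largely outside its known domain. The comparison sets transcripts of such deep neurons in knock-out cortex against those in control cortex. In bulk tissue fewer cells of a type and less RNA per cell cannot be told apart.

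Levels are given as log2 of the processed signal minus the 75th percentile of the same array, so that 0 is the signal below which 75% of probes lie. Levels of different probes are not set against each other, because probes differ in their response. Between 58.5% and 68.1% of probes were well above background on the knock-out arrays, and between 62.7% and 72.7% on the control arrays. The brighter Cux2 probe stood at -0.03 ± 0.02 in knock-outs and 0.09 ± 0.16 in controls (SD, n = 3 each). Its place relative to the altered part of the gene is not stated in those sources, so it checks nothing about the labels. The arrays lie on 2 slides. Slide 1 holds knock-outs 48 and 54 with control 15, and slide 2 holds knock-out 53 with controls 62 and 16.

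Of the 10 genes, 9 were tested by their brightest probe and none passed the threshold. The lowest adjusted p was 0.598, for Nxph4 (limma, adjusted over all 25445 tested probes, threshold 0.05). Of all tested probes, 33 passed, or 0.13%. That count was 2 without control 16, 7 without control 15, 12 without knock-out 54 and 60 without knock-out 53. With normexp background correction it was 0 under 75th percentile scaling and 33 under quantile normalization. Brightest probes of 2 members were higher in the knock-outs and those of 7 were lower, with differences between -0.40 for Oprk1 and 0.21 for Nxph4. The median difference over the 9 genes was -0.16, against -0.01 over all 17100 tested genes, of which 51.8% were lower. The members' median was -0.061 without control 16 and 0.026 within slide 1. The median size of the difference without its sign was 0.18 over the members and 0.09 over all genes, while the median standard error was 0.13 over the members and 0.11 over all genes.

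**Figure D1:**
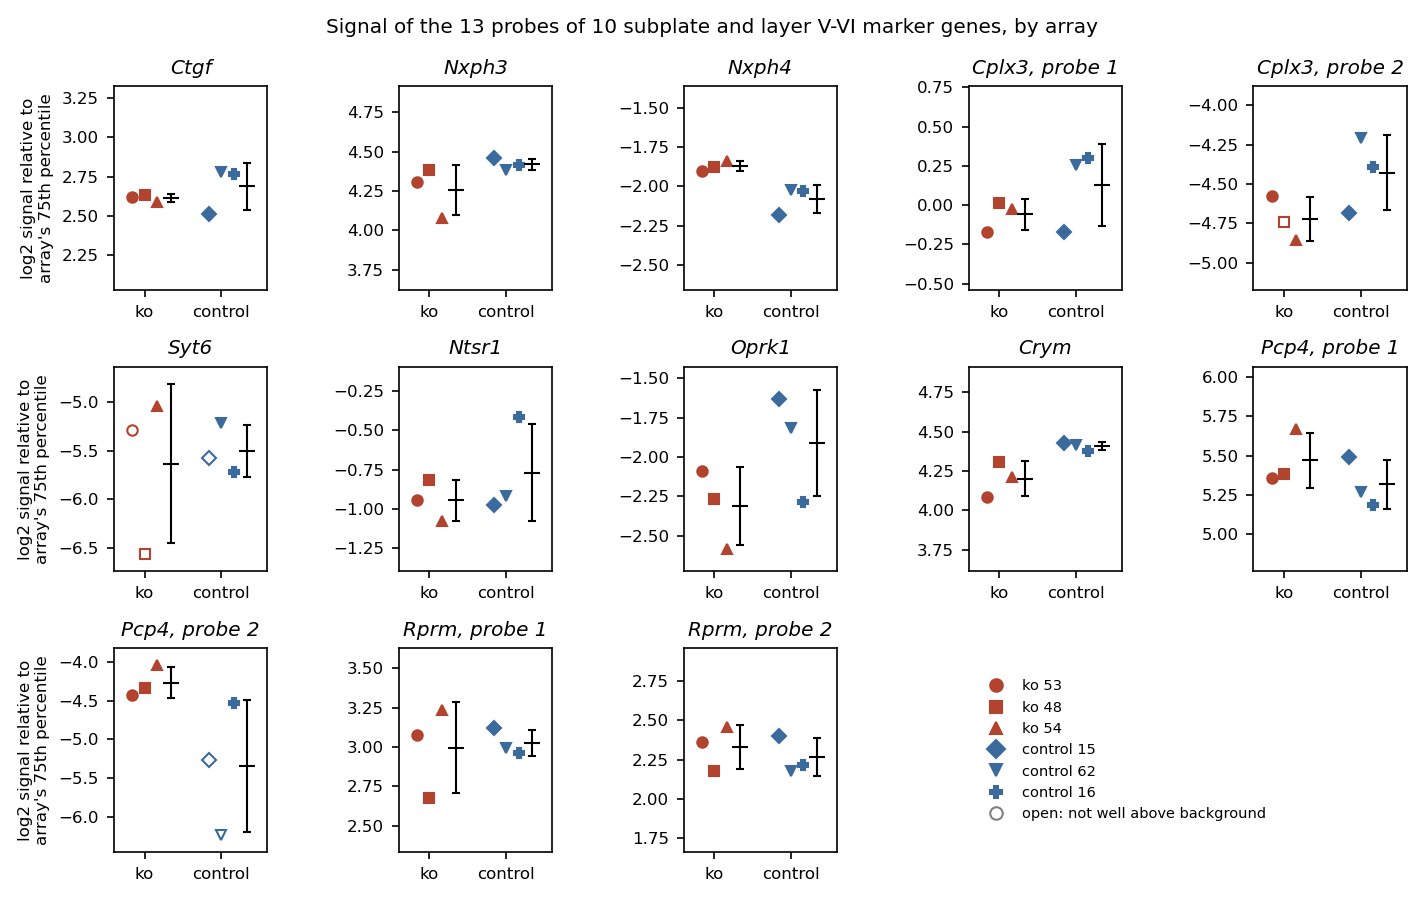
Level of each of the 13 probes on each of the 6 arrays, in log2 units from the 75th percentile of that array, with knock-outs left of controls and the mean ± SD beside each group (n = 3). Each panel has its own axis. Open symbols mark arrays on which the probe was not well above background, as for Syt6 on knock-outs 53 and 48 and control 15.

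Among the secreted proteins, Ctgf encodes a matricellular protein that is a widely used subplate marker and is also made by vessel-associated cells and fibroblasts. Ctgf stood at 2.62, 2.63 and 2.59 on knock-out arrays 53, 48 and 54, against 2.51, 2.78 and 2.77 on control arrays 15, 62 and 16. All 3 knock-out values fell inside the range of the controls, and the knock-out arrays lay closer together than the control arrays did. Its difference was -0.07 (SE 0.10, limma adjusted p = 0.918), and between -0.16 (without control 15) and -0.03 (without control 62) with 1 array left out. The 95% interval ran from 0.81-fold to 1.12-fold of the control level. Of 15 vessel and mural markers 7 were higher and 8 lower, with a median difference of 0.00. Summed signals, each relative to the 75th percentile, were 36.3 to 40.6 in knock-outs and 36.8 to 38.8 in controls. The groups did not overlap for 1 of these markers with knock-outs above and for 3 with knock-outs below. Over all tested genes these shares were 6.39% and 7.22%. At an unadjusted limma p under 0.05, 1 marker was higher and 1 lower, against 3.89% and 4.38% of all genes. Of 10 tested markers of meninges and fibroblasts 6 were higher and 4 lower (median 0.06). Their summed signals were 16.9 to 20.0 in knock-outs and 16.4 to 21.1 in controls. The meningeal marker Crabp2 was above background on no array. The part of vessel-associated cells and fibroblasts in the Ctgf values was not tested.

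Nxph3 and Nxph4 encode neurexophilins, secreted glycoproteins that bind alpha-neurexins at synapses. Nxph4 stood at -1.90, -1.88 and -1.84 on knock-out arrays 53, 48 and 54, against -2.19, -2.03 and -2.03 on control arrays 15, 62 and 16. All 3 knock-out arrays were above all 3 controls. The difference was 0.21 (SE 0.08, 95% interval 0.01 to 0.40), or 1.15-fold, and it did not pass after adjustment (limma adjusted p = 0.598). It was 0.33 within slide 1 and 0.12 within slide 2.

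Nxph3 stood at 4.31, 4.38 and 4.08 on knock-out arrays 53, 48 and 54, against 4.46, 4.39 and 4.41 on control arrays 15, 62 and 16. The groups did not overlap, but only narrowly, since the highest knock-out array was at 4.381 and the lowest control at 4.386. Knock-out 54 was lowest. The difference was -0.16 (SE 0.10, 95% interval -0.40 to 0.08, limma adjusted p = 0.773), and it was -0.07 without knock-out 54. The estimates for the pair of neurexophilins thus had opposite signs, and the difference between them was not tested. Their relatives Nxph1 and Nxph2 differed by 0.04 and -0.12, and the neurexins Nrxn2 and Nrxn3 by -0.08 and 0.20, with limma adjusted p between 0.735 and 0.952 over these 4 genes.

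A pair of members act in vesicle release. Cplx3 encodes a complexin, a small protein that binds the assembled SNARE complex. Its brighter probe stood at -0.17, 0.01 and -0.02 on knock-out arrays 53, 48 and 54, against -0.17, 0.26 and 0.30 on control arrays 15, 62 and 16. Control 15 was as low as the lowest knock-out, and the other controls were above every knock-out. The difference was -0.19 (SE 0.14, 95% interval -0.53 to 0.15, limma adjusted p = 0.830). Within slide 1 it was 0.17 and within slide 2 it was -0.45, and leaving out 1 array at a time gave between -0.34 (without control 15) and -0.10 (without control 16).

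The second Cplx3 probe was dim, at -4.57, -4.74 and -4.86 on knock-out arrays 53, 48 and 54 and -4.68, -4.21 and -4.39 on control arrays 15, 62 and 16. It cleared the background limit on 2 of 3 knock-outs and on all 3 controls, and so entered the test through the controls. Control 15 lay inside the range of the knock-outs, and the other controls were above it. The difference was -0.30 (SE 0.14, limma adjusted p = 0.688). The related Cplx1 and Cplx2 differed by -0.05 and -0.01, with limma adjusted p of 0.924 and 0.995, and of the SNARE proteins Snap25 differed by 0.09, Stx1a by 0.04 and Vamp2 by -0.14.

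Syt6 encodes a synaptotagmin, one of a family of membrane proteins that bind phospholipids, and is a marker of layer VI neurons. Its single probe was at the edge of detection and was not tested. The processed signal was 28.5, 11.1 and 36.1 on knock-out arrays 53, 48 and 54, against 22.2, 23.9 and 19.5 on control arrays 15, 62 and 16. Only knock-out 54 and controls 62 and 16 had it well above background. Values of both groups overlapped, and at this signal a difference could not be measured.

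Of the receptors, Ntsr1 encodes the high-affinity receptor for the peptide neurotensin and marks layer VI neurons that project to the thalamus. Ntsr1 stood at -0.94, -0.81 and -1.08 on knock-out arrays 53, 48 and 54, against -0.97, -0.92 and -0.41 on control arrays 15, 62 and 16. Control 16 alone stood apart, and the other controls lay among the knock-outs. The difference of -0.18 (SE 0.17, limma adjusted p = 0.863) was 0.0011 without control 16 and -0.28 without control 15. Its peptide ligand Nts was at -0.96 ± 0.15 in knock-outs and -0.58 ± 0.14 in controls (SD, n = 3 each), with no overlap and a difference of -0.38 that did not pass (SE 0.11, limma adjusted p = 0.481). Other neurotensin-binding proteins, Ntsr2 and Sort1, differed by -0.02 and 0.09.

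Oprk1 encodes the kappa opioid receptor, whose ligands are the dynorphin peptides. It gave the estimate furthest from 0 among the brightest probes of the 9 members. Oprk1 stood at -2.09, -2.27 and -2.58 on knock-out arrays 53, 48 and 54, against -1.63, -1.82 and -2.29 on control arrays 15, 62 and 16. Controls 15 and 62 were above every knock-out, whereas control 16 was below 2 of the 3. The difference was -0.40 (SE 0.20), or 0.76-fold, with a 95% interval from 0.54-fold to 1.06-fold (limma adjusted p = 0.705).

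The Oprk1 difference was -0.79 within slide 1 and -0.04 within slide 2, and with 1 array left out it lay between -0.59 (without control 16) and -0.26 (without control 15). Oprk1 is also expressed in striatum and claustrum, which border the deep cortex. Striatal markers too were low on control 16 and high on the other controls. Their median deviation from each gene's mean was -0.39, -0.12 and -0.27 in knock-outs 53, 48 and 54, against 0.47, 0.43 and -0.23 in controls 15, 62 and 16. All 14 tested striatal markers were lower in knock-outs (median difference -0.47, lowest limma adjusted p 0.385). Of them 4 had an unadjusted limma p under 0.05, against 4.38% of all genes lower by that measure. The groups did not overlap for 2 of the 14, against 7.22% of all genes with knock-outs below. Summed signals, in which the brightest genes weigh most, were 55.9 to 68.1 in knock-outs and 58.4 to 106 in controls. The part of striatal tissue in the Oprk1 values was not tested.

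Markers of claustrum and endopiriform nucleus were lower in 6 of 8 (median -0.19), and Nr4a2 and Nnat among them also stand in the subplate list. Summed signals, in which the brightest genes weigh most, were 25.6 to 28.5 in knock-outs and 29.4 to 31.3 in controls. The median deviation from each gene's mean was -0.20, 0.01 and -0.07 in knock-outs 53, 48 and 54. It was 0.02, 0.04 and 0.11 in controls 15, 62 and 16. Of these markers Gnb4, a G protein beta subunit, was at -0.46 ± 0.12 in knock-outs and 0.07 ± 0.18 in controls (SD, n = 3 each, difference -0.54, limma adjusted p = 0.279). Their part in the values of the members was likewise not tested. The dynorphin precursor Pdyn differed by -0.17 (limma adjusted p = 0.829) and the nociceptin receptor Oprl1 by -0.09 (limma adjusted p = 0.836). The delta opioid receptor gene Oprd1 was above background on no array.

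Another 3 members act inside the cell. Crym encodes mu-crystallin, which binds thyroid hormone in the cytosol and is enriched in deep cortical layers and in striatum. Crym stood at 4.09, 4.31 and 4.21 on knock-out arrays 53, 48 and 54, against 4.43, 4.42 and 4.38 on control arrays 15, 62 and 16. All knock-out arrays were below all controls, and the controls differed little among themselves (SD 0.03, against 0.11 in knock-outs). The difference was -0.21 (SE 0.09, 95% interval -0.41 to -0.004), or 0.87-fold, and it did not pass after adjustment (limma adjusted p = 0.617). It was lower within both slides, by -0.17 in slide 1 and -0.31 in slide 2. The part of striatal tissue in the Crym values was not tested.

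Pcp4 encodes a small protein that binds calmodulin and marks layer V and VI neurons as well as striatum. Its brighter probe stood at 5.36, 5.38 and 5.67 on knock-out arrays 53, 48 and 54, against 5.49, 5.27 and 5.19 on control arrays 15, 62 and 16. The groups overlapped through control 15. The difference was 0.15 (SE 0.13, 95% interval -0.15 to 0.45, limma adjusted p = 0.837), and with 1 array left out it lay between 0.05 (without knock-out 54) and 0.24 (without control 15). The part of striatal tissue in the Pcp4 values was not tested. Of genes of its partner calmodulin, Calm2 differed by -0.01, while Calm3 was at 5.61 ± 0.13 in knock-outs and 5.24 ± 0.19 in controls (SD, n = 3 each; difference 0.37, limma adjusted p = 0.520).

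The second probe that the array files name Pcp4 is assigned there to a cDNA clone from striatum. No probe sequence was at hand, so it may not measure Pcp4. It stood at -4.43, -4.33 and -4.04 on knock-out arrays 53, 48 and 54, against -5.26, -6.23 and -4.54 on control arrays 15, 62 and 16. All knock-out arrays were above all controls, but the signal cleared the background limit on all 3 knock-outs and, of the controls, only on 16. It entered the test through the group in which it was bright. Its difference of 1.07 (SE 0.40, limma adjusted p = 0.577) was the widest of the 12 tested probes and carried the widest interval, from 0.12 to 2.03.

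Rprm encodes Reprimo, a protein induced by p53 that halts the cell cycle, and in cortex it marks layer VI. Its brighter probe stood at 3.08, 2.68 and 3.23 on knock-out arrays 53, 48 and 54, against 3.12, 2.99 and 2.96 on control arrays 15, 62 and 16. Knock-outs lay on both sides of the controls, with knock-out 48 lowest and knock-out 54 highest. The difference was -0.03 (SE 0.15, limma adjusted p = 0.981). The second Rprm probe, also well above background on all 6 arrays, stood at 2.36, 2.18 and 2.46 on knock-out arrays 53, 48 and 54, against 2.40, 2.18 and 2.22 on control arrays 15, 62 and 16. It too overlapped fully and had knock-out 48 lowest among the knock-outs, with a difference of 0.07 (SE 0.11, limma adjusted p = 0.932). Trp53, which encodes p53, was at 0.03 ± 0.06 in knock-outs and -0.16 ± 0.03 in controls (SD, n = 3 each; difference 0.19, limma adjusted p = 0.590).

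**Figure D2:**
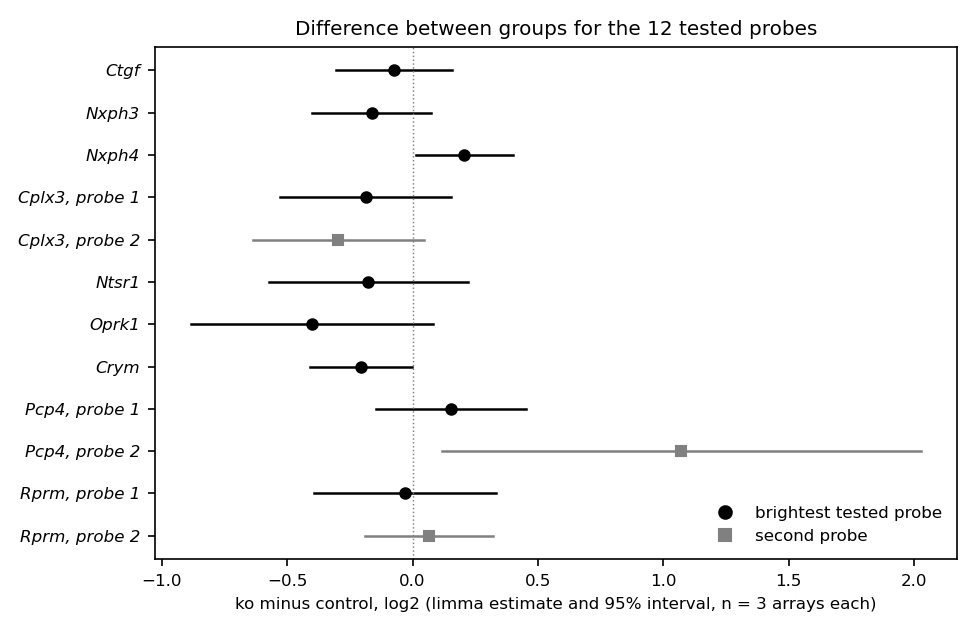
Knock-out minus control on the log2 scale for the 12 tested probes, with the limma estimate as a point and its 95% interval as a line (n = 3 arrays per group). Black circles are the brightest tested probe of a gene and grey squares are second probes. The intervals of Nxph4 and Crym do not include 0. Nor does that of the second Pcp4 probe, which entered the test only through the knock-outs, where it was bright. No probe passed after adjustment.

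Among the 9 tested members, the groups did not overlap for 3: Nxph4, with knock-outs above, and Crym and Nxph3, with knock-outs below. Over all tested genes such separation occurred for 6.39% with knock-outs above and 7.22% with knock-outs below. At an unadjusted p under 0.05, Nxph4 was higher and Crym was lower, where 3.89% of all genes were higher and 4.38% lower by that measure. With 9 genes these counts are small, and no member passed over the whole table. Intervals limit what the data allow. For the brightest probes of Ctgf, Nxph3, Nxph4 and Crym, the 95% interval lay between 0.75-fold and 1.32-fold of control. Those of Cplx3, Ntsr1, Pcp4 and Rprm reached from 0.67-fold to 1.37-fold, and that of Oprk1 down to 0.54-fold.

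The members did not move as a block over the arrays. The median deviation from each gene's mean was -0.03, -0.01 and -0.06 on knock-out arrays 53, 48 and 54, against 0.10, 0.05 and 0.07 on control arrays 15, 62 and 16. Control 15 was nonetheless the highest array for 3 of the 9 members and the lowest for 3 others. Knock-out 54 was the highest array for 3 members and the lowest for 3. Control 15 was lowest for Ctgf, Nxph4 and Cplx3, and highest for Oprk1, Crym and Nxph3.

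**Figure D3:**
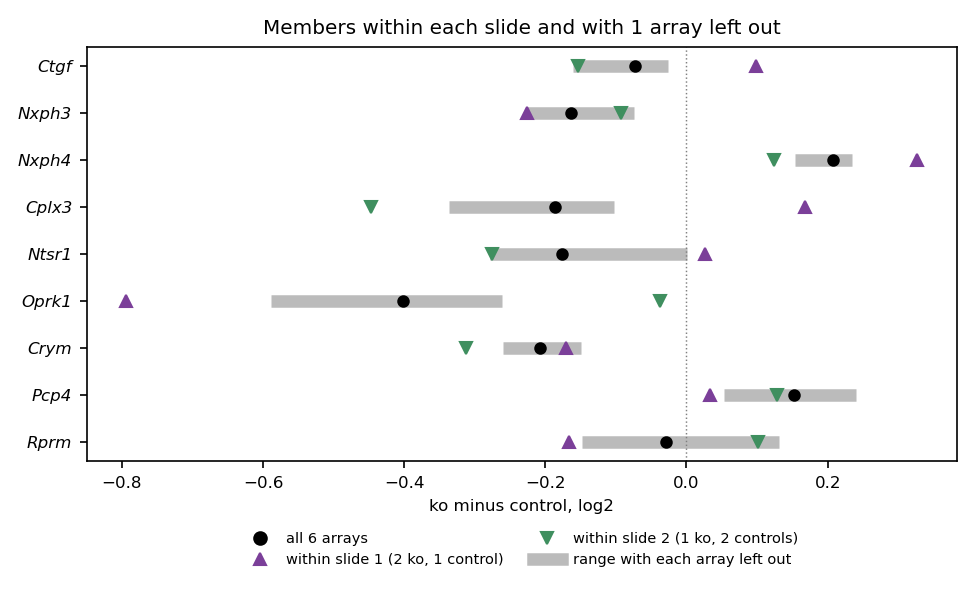
Knock-out minus control on the log2 scale for the brightest tested probe of 9 members, over all 6 arrays (black circles), within slide 1 (triangles up; 2 knock-outs, 1 control) and within slide 2 (triangles down; 1 knock-out, 2 controls). Grey bars span the values with each array left out in turn. Ctgf, Cplx3, Ntsr1 and Rprm took opposite signs on the 2 slides, and Oprk1 ran from -0.79 to -0.04.

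Within slide 1, 5 members were higher and 4 lower, with a median of 0.03, and within slide 2, 3 were higher and 6 lower, with a median of -0.09. Nxph4 and Pcp4 were higher on both slides, and Nxph3, Oprk1 and Crym were lower on both. With slide fitted as a block the median was -0.12 and 2 of 9 members were higher. Each slide holds 1 sample of one of the groups, so the within-slide values have no test.

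Other markers of the same layers were described in the same way, and the difference between their medians and that of the members was not tested. Of 14 tested subplate and layer VIb markers 4 were higher and 10 lower (median -0.07), of 12 layer VI markers 4 were higher and 8 lower (median -0.04), and of 18 layer V markers 6 were higher and 12 lower (median -0.06). None of these 44 genes passed after limma's adjustment, and Rspo1 and Sox5 (higher) and Nr4a2, Fezf2 and Npr3 (lower) had an unadjusted p under 0.05. Over all tested genes 3.89% were higher and 4.38% lower by that measure. Of 10 pan-neuronal genes 7 were higher (median 0.04).

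Nr4a2, a nuclear receptor of subplate and claustrum neurons, was at 2.48 ± 0.12 in knock-outs and 2.79 ± 0.09 in controls (SD, n = 3 each; difference -0.31, limma adjusted p = 0.496). Rspo1, a secreted activator of Wnt signalling, was at 3.04 ± 0.07 in knock-outs and 2.63 ± 0.33 in controls (difference 0.40, limma adjusted p = 0.620). Of other subplate markers, Trh differed by 1.13, Adra2a by -0.24, Tmem163 by -0.99 and Moxd1 by -0.20 (limma adjusted p between 0.718 and 0.851). Arrays of a group spread widely for Trh (SD 1.19 in knock-outs) and Tmem163 (SD 1.68 in controls). The subplate list therefore held estimates of both signs, as the members did.

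Sox5, a transcription factor of subplate and deep-layer neurons, was at -1.75 ± 0.10 in knock-outs and -1.97 ± 0.04 in controls (SD, n = 3 each; difference 0.22, limma adjusted p = 0.577). Foxp2, a forkhead factor of layer VI, was at -0.42 ± 0.11 in knock-outs and -0.15 ± 0.20 in controls (difference -0.27, limma adjusted p = 0.671). The layer VI factors Tle4 and Tbr1 differed by -0.02 and -0.00, with limma adjusted p of 0.975 and 0.996. Of layer V genes, Npr3, a clearance receptor for natriuretic peptides, was at -1.26 ± 0.11 in knock-outs and -0.87 ± 0.23 in controls (difference -0.39, limma adjusted p = 0.539). Fezf2, which specifies subcerebral projection neurons, differed by -0.52 (limma adjusted p = 0.503). Bcl11b differed by -0.17, Bcl6 by -0.22 and Etv1 by -0.05 (limma adjusted p = 0.671, 0.748 and 0.932). In the layer V list the groups did not overlap for Fezf2, Npr3 and Bcl11b, with knock-outs below, and for Parm1, with knock-outs above. Over all tested genes 7.22% separated with knock-outs below and 6.39% with knock-outs above.

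**Figure D4:**
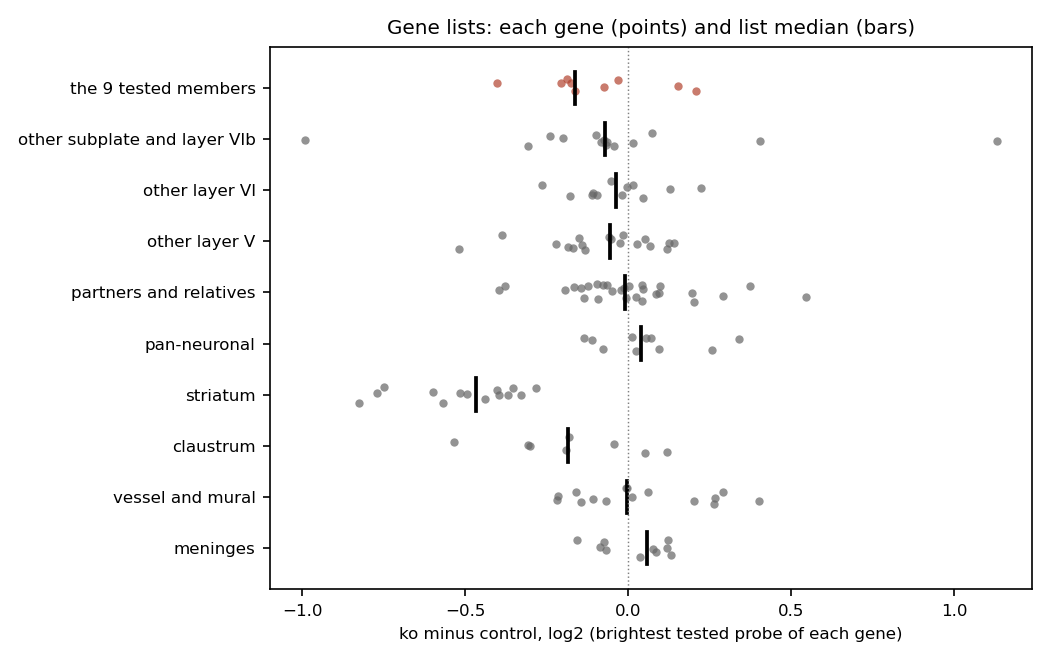
Knock-out minus control on the log2 scale for each tested gene of 10 lists (points, brightest tested probe) with the list's median (bars). The 9 tested members have a median of -0.16, the other subplate, layer VI and layer V markers lie at -0.07, -0.04 and -0.06, and the striatal markers at -0.47.

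Of 28 tested partners and relatives of the members, 13 were higher and 15 lower (median -0.01), and none passed after adjustment in limma. Calm3 and Trp53 (higher) and Nts (lower) had an unadjusted p under 0.05, against 3.89% of all genes higher and 4.38% lower. By the smallest root-mean-square difference between deviations over the 6 arrays, the genes most like Nxph4, the member of lowest p, were Dnali1 (0.026), Sgsm1 (0.027), Notum (0.032), Tmem97 (0.034) and Zfp800 (0.035). They were sought among all tested genes, over 6 arrays.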

How the data were processed

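Total RNA of 6 mouse cortex samples was measured on 1-colour Agilent arrays. Per the file headers, Agilent Feature Extraction 9.1.3.1 gave the processed signal, an intensity that was detrended over the array surface, with background correction off and surrogates used for dim spots. Mean spot and background intensity values are uncorrected, per the file headers. A deposited series-wide file holds the authors' log2 values, whose columns share 1 distribution (median 6.75), as quantile normalization gives, and rank exactly as the processed signals. The labels do not name that step.

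Of 45018 spots per array, 1639 control spots and 120 outlier values were left out, and spots of a probe were averaged (41174 probes). Values are log2 of that signal less the 75th percentile of the array. Tested probes were well above background on all 3 arrays of a group and had values on all 6 (25445 probes, 17100 genes by the brightest probe), a filter that uses the group labels. Models were fitted with limma 3.58.1 (lmFit, eBayes) under R 4.3.3 with the data.table package (version 1.17.8), and p-values were Benjamini-Hochberg adjusted over all tested probes at 0.05; the fit was tested on simulated data. Figures used matplotlib 3.10.9 in Python 3.11.15. Gene names were updated through a RefSeq table of assembly GRCm38.p6 by accession (22951 probes), symbol (6659) or synonym (3109), and 8455 kept the file's name. No coordinates are printed.

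The members and lists were chosen with earlier results of these data known. All members are named, with up to 4 genes of lowest p per list; other genes of the lists named in the text are family relatives or layer markers picked after their values were seen. Some genes of the lists are not reported here by name. Marker lists not named in the report are given in the closing section. Titles give each sample its own number, so no samples were paired. Alternatives changed scaling, background correction, filter, variance model, array weights, probe summary, slide, the source of the values and the arrays used. The number of arrays limits the precision.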

Additional observations from a re-analysis of the deposited data

How the results depend on the processing

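No member passed the threshold under any of the 19 alternatives that have a test (limma adjusted p from 0.338 upward). Nxph4 kept its sign in all 21 alternatives (0.12 to 0.38), as did Oprk1 (-0.79 to -0.04), Crym (-0.31 to -0.03) and Pcp4 (0.03 to 0.33, and 0.61 with the mean of its probes, which takes in the dim second probe). An unadjusted p under 0.05 was kept in 8 of 19 alternatives for Nxph4 and in 6 of 19 for Crym. Without scaling between arrays, which moved the median of all probes to 0.17, Ctgf stood at 0.10, Nxph3 at 0.012 and Rprm at 0.14, and 5 members were higher; relative to that median these genes stood at -0.07, -0.16 and -0.03. Signs also turned within slide 1 for Ctgf (0.10), Cplx3 (0.17) and Ntsr1 (0.026), and for Rprm within slide 2 (0.10) and with the mean of its probes (0.018). With each array left out in turn Rprm ran from -0.15 to 0.13 and Ntsr1 from -0.28 to 0.0011.

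The members' median ran from -0.22 (without knock-out 48) to -0.061 (without control 16). It was -0.20 with array medians, -0.13 with quantile normalization or the authors' deposited log2 values, 0.012 without scaling, -0.10 with normexp and the 75th percentile, -0.11 with normexp and quantiles, -0.11 with array weights, -0.12 with slide as a block, 0.026 within slide 1 and -0.093 within slide 2. The cause of these shifts was not tested. The 33 probes called over the whole table (13 higher, 20 lower) were 0 with normexp and the 75th percentile, 3 and 2 with the looser and with no filter on dim probes, 15 with slide as a block and 19 genes with the mean of probes. They numbered 33 with normexp and quantiles, and 32 with quantile normalization or the authors' deposited log2 values. Array medians gave 49 (13 higher, 36 lower) and no scaling gave 41 (19 higher, 22 lower). They ran from 2 without control 16 to 60 without knock-out 53, and were 7 without control 15 and 12 without knock-out 54. No paired analysis was possible because the groups share no replicate number. Syt6 and the second probes of Cplx3 and Pcp4 were near background, which limits their precision.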

Other observations

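Markers of upper-layer neurons and of other cell types were measured on the same arrays. Of 13 tested upper-layer markers 4 were higher and 9 lower in knock-outs (median -0.10), with 1 higher and 3 lower at an unadjusted p under 0.05. By that measure 3.89% of all genes were higher and 4.38% lower. Kcnh5, a potassium channel subunit, differed by 0.44, Dtx4 by -0.39, Pou3f2 by -0.33 and Rasgrf2 by -0.21 (limma adjusted p = 0.227, 0.289, 0.606 and 0.608). Of 12 interneuron markers 4 were higher and 8 lower (median -0.03), of 10 hippocampal markers 5 and 5 (median 0.02), of 9 thalamic markers 6 and 3 (median 0.03), of 10 oligodendrocyte markers 4 and 6 (median -0.05) and of 7 choroid plexus markers 4 and 3 (median 0.03). Of 9 astrocyte markers 1 was higher and 8 were lower (median -0.16). Their summed signals relative to the 75th percentile were 214.3 to 230.6 in knock-outs and 234.1 to 273.4 in controls. For 3 of the 9 the groups did not overlap, against 7.22% of all genes with knock-outs below. An unadjusted limma p under 0.05 was found for 2 of the 9, both lower, against 4.38% of all genes. All 10 microglial markers were lower (median -0.43), with summed signals relative to the 75th percentile of 25.7 to 27.4 in knock-outs and 34.1 to 42.9 in controls. The groups did not overlap for 8 of these 10, against 7.22% of all genes with knock-outs below, and 8 of 10 had an unadjusted p under 0.05, against 4.38% of all genes. None of these genes passed in limma over all probes, and their part in the values of the deep-layer genes was not tested.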
